A study of Danio rerio with 6 samples.

Results

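The genes described here are those of melatonin synthesis and of the circadian clock, measured in sorted retinal cells of adult zebrafish. Members were all probe sets whose gene symbol was *aanat1* or *aanat2*, or began with asmt, per1 to per3, cry1 to cry5, clock, arntl, bmal or npas2. This rule found 23 of 15502 tested probe sets, and they stand for 18 of 8793 named genes. All fish carried the transgene Tg(3.2TalphaCP:EGFP), in which a promoter fragment of the cone transducin α gene *gnat2* drives EGFP in cone photoreceptors. They were adult and untreated, and lived under 14 h of light and 10 h of darkness. Retinal cells were dissociated with trypsin and separated by flow cytometry into a GFP-positive and a GFP-minus population, with 3 biological replicates and thus 3 arrays of each. For dissociation 30 retinae were pooled, and the number behind each replicate is not stated. Both populations carry the tissue label cone cells, although the GFP-minus cells were those sorted without EGFP signal. No source used here states the hour of dissection, or whether a replicate number marks the same fish in both populations.

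Melatonin is made from serotonin in a pair of steps. Aanat acetylates serotonin and Asmt methylates the product, and in fish retina both *aanat* genes are known from photoreceptors and other retinal cells. The clock is a feedback loop in which Clock or Npas2 pairs with Bmal and switches on *per* and *cry* genes, whose proteins repress that pair. In zebrafish, *per2* and *cry1a* are also known to be induced by light. Many of these transcripts rise and fall over the day, so that their level depends on the time at which tissue is taken.

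Values are log2 expression values of the deposited GCRMA table, 1 per probe set. Their lowest value was 2.17, which 12.1% to 14.4% of the probe sets shared on each array and at which a level cannot be told from background. The populations were compared with limma and Benjamini-Hochberg adjustment over all 15502 probe sets, and a probe set was called at an adjusted p under 0.05. Of all probe sets, 463 were called higher (2.99%) and 727 lower (4.69%) in GFP-positive cells. The split became 6151 higher and 1102 lower when each array was centred on its median, which moved the typical difference by 0.225, and 195 higher and 3251 lower when arrays were set to equal hybridization controls, which moved it by -0.737. Of 17 cone genes fixed as markers, 15 were higher and none was lower. Their summed linear level was 107000 to 142000 in GFP-positive samples, 5820 and 5890 in GFP-minus replicates 1 and 2, and 12200 in GFP-minus replicate 3. The *gnat2* transcript lay at 12.56, 12.94 and 13.15 in GFP-positive and at 6.24, 6.21 and 8.91 in GFP-minus replicates 1, 2 and 3. The EGFP control probe set of the array lay near background in both populations, at 2.34 to 2.72 and at 2.20 to 2.34, and no source used here states whether its probes match the transgene. Of 12 leukocyte genes 10 were lower in GFP-positive cells, and of 13 erythrocyte genes 8 were lower. Of 13 genes of Müller glia 3 were higher (*rlbp1a*, *vim* and *gfap*, by 2.48-fold, 2.17-fold and 2.01-fold) and 1 was lower (*slc1a3a*, by 19.4-fold). Of the 13 differences 5 were positive and 7 negative, with a median of -0.13. Their summed level was 22900 to 34300 in GFP-positive against 19400 to 30700 in GFP-minus samples. Of 16 genes of inner retinal neurons none was higher and 3 were lower. The part of these cell types in the results that follow was not tested. Fewer cells of a type and less RNA per cell cannot be told apart in such samples.

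Among the members, *aanat2* was higher in GFP-positive cells and no other probe set passed the test, so that 1 of 23 was called higher (4.35%) and 0 lower, against 2.99% higher, 4.69% lower and 7.68% in either direction among all probe sets. By name these 22 others are *aanat1*, *asmtl* and all clock genes. At an unadjusted p under 0.05, 3 of the 23 were higher (*aanat2*, *aanat1* and *per2*) and 0 lower, while 21.1% of all probe sets differed at this level. Every GFP-positive array lay above every GFP-minus array in 4 members, namely *aanat2* and a probe set each of *aanat1*, *per2* and *cry2*. That is 17.4% of the members, against 13.9% of all probe sets. Of the 23 differences 21 were positive, 1 was negative and 1 was 0. Among all 15502 probe sets 7990 were positive and 5482 negative. Under the hybridization-control scaling 8 of the 23 were positive, against 1435 of the 15502. The median difference was 0.46 on the log2 scale, against 0.01 over all probe sets. Under the hybridization-control scaling these medians were -0.27 and -0.73. A value above 4 on at least 1 array was reached by 13 of the 23, and by 61.4% of all probe sets. Among the latter 4.71% were called higher and 7.52% lower, and in 19.7% every GFP-positive array lay above and in 19.3% below every GFP-minus array. The 13 members include the 1 called and the 4 without overlap.

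**Figure D1:**
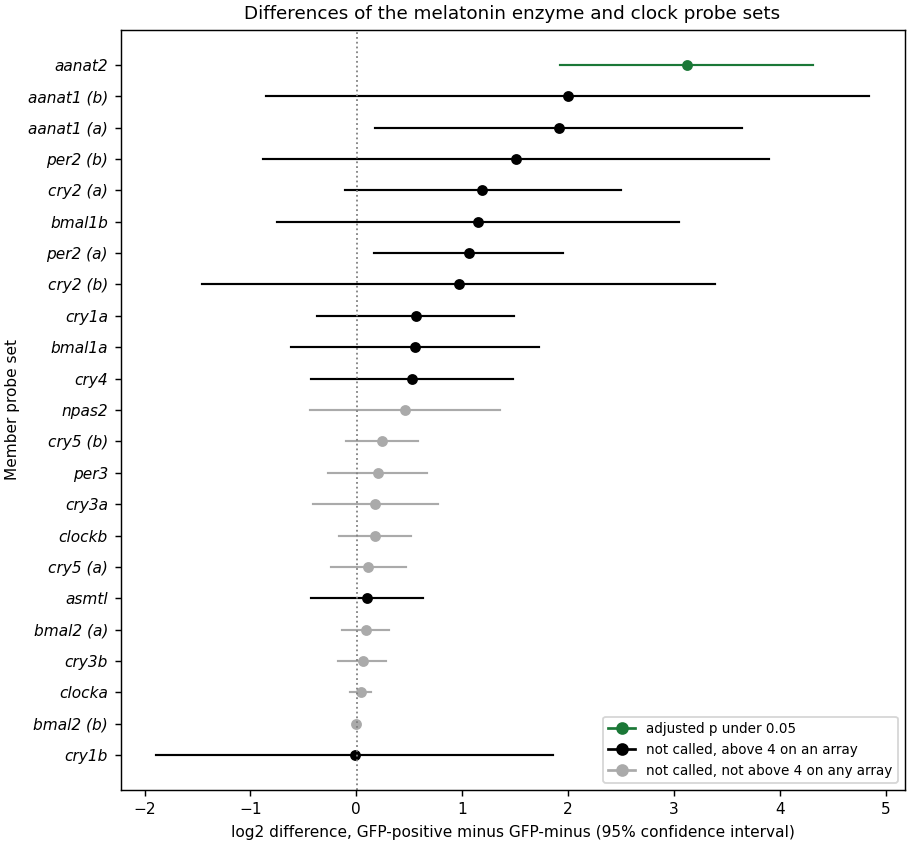
The horizontal axis gives the log2 difference between 3 GFP-positive and 3 GFP-minus arrays for each of the 23 member probe sets, as a point with its 95% confidence interval from limma, and the dotted line marks the median of all probe sets at 0.01. The *aanat2* probe set at the top, at 3.12, is the only one called. Where a gene has more than 1 probe set, (a) is the brighter.

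The largest difference among the members was that of *aanat2*, a gene for the rate-limiting enzyme of melatonin synthesis. The *aanat2* values were 11.51, 11.12 and 12.14 in GFP-positive replicates 1, 2 and 3 and 8.01, 8.20 and 9.21 in GFP-minus replicates 1, 2 and 3. The populations did not overlap, and the highest GFP-minus value came from replicate 3. The mean was 11.59 ± 0.52 in GFP-positive and 8.47 ± 0.65 in GFP-minus cells (SD, n = 3 arrays each). The difference of 3.12 log2 units corresponds to 8.68-fold (limma adjusted p = 0.0289), with a standard error of 0.45 and a 95% confidence interval of 1.92 to 4.31. It was 5.21-fold under the hybridization-control scaling (limma adjusted p = 0.00373) and 10.1-fold with median centring (limma adjusted p = 0.009). With any single array left out, *aanat2* was 7.17-fold to 11.2-fold higher. The call held without GFP-minus replicate 3 (limma adjusted p = 0.0400), which is the sample with more cone transcripts. It was lost without GFP-minus replicate 1 or 2 (0.0752 and 0.109) and without GFP-positive replicate 1, 2 or 3 (0.0872, 0.0820 and 0.100), where 5 arrays remained.

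The second acetyltransferase gene, *aanat1*, was represented by a pair of probe sets, and neither was called. The first lay at 9.92, 10.49 and 11.04 in GFP-positive and at 8.05, 7.88 and 9.80 in GFP-minus replicates 1, 2 and 3. These values did not overlap, but GFP-minus replicate 3 came close to the lowest GFP-positive sample, replicate 1. The difference was 1.91 (95% confidence interval 0.18 to 3.64, limma adjusted p = 0.199), or 3.75-fold. The second probe set lay at 8.60, 9.99 and 9.97 in GFP-positive and at 6.14, 6.87 and 9.56 in GFP-minus replicates 1, 2 and 3. Here GFP-minus replicate 3 fell inside the range of the GFP-positive samples. The difference was 2.00 (95% confidence interval -0.85 to 4.84, limma adjusted p = 0.388). Over the 6 arrays the pair had a Pearson correlation of 0.949, a description that includes the difference between populations. Without GFP-minus replicate 3 the differences were 2.52 and 3.01 (limma adjusted p = 0.0737 and 0.113). The first probe set was called when only probe sets whose mean lay above the median of all means were tested (limma adjusted p = 0.0459), and with median centring (0.0375). Whether *aanat1* and *aanat2* differ in their response was not tested.

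Rod transcripts were also higher in the sample in which both *aanat* genes stood high among the GFP-minus cells. The summed linear level of 9 rod genes was 86300, 98100 and 110000 in GFP-positive replicates 1, 2 and 3 and 30100, 35600 and 64500 in GFP-minus replicates 1, 2 and 3. Of these 9 genes, 1 was called higher and 0 lower in GFP-positive cells, and 8 were higher at an unadjusted p under 0.05 in limma. Of all probe sets 2.99% were called higher, and 21.1% had an unadjusted p under 0.05 in either direction in limma. The part of rod cells in the *aanat* values was not tested.

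The last enzyme, Asmt, is not analysed here. The only gene with a related symbol, *asmtl* (Asmt-like), lay at 6.40, 6.44 and 6.77 in GFP-positive and at 6.39, 6.15 and 6.76 in GFP-minus replicates 1, 2 and 3. These values overlapped almost entirely. The difference was 0.10 (95% confidence interval -0.43 to 0.63, limma adjusted p = 0.853), and it turned to -0.64 under the hybridization-control scaling.

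Serotonin is the substrate of the acetyltransferases, and the genes *tph1a*, *ddc* and *mao* of its synthesis and breakdown were also higher in GFP-positive cells. Of 14 measured genes of serotonin and melatonin synthesis, breakdown and reception, 3 were higher (21.4%) and none was lower in GFP-positive cells. Of all probe sets 2.99% were called higher and 4.69% lower. The median difference of the 14 genes was 0.01, and 7 of them did not pass 4 on any array. At an unadjusted p under 0.05, 3 were higher and 1 lower in limma, while 21.1% of all probe sets differed at this level. The lower gene was *ywhaz*, a 14-3-3 gene (difference -0.76). The first called gene was *tph1a*, tryptophan hydroxylase, which starts serotonin synthesis. It lay at 6.81, 6.58 and 7.15 in GFP-positive and at 3.90, 3.89 and 5.00 in GFP-minus replicates 1, 2 and 3. The populations did not overlap, and GFP-minus replicate 3 was again the highest of its population. The difference was 2.58 (standard error 0.38, limma adjusted p = 0.0304), or 5.99-fold. A further *tph1a* probe set, with 4.83 to 6.10 against 3.56 to 4.15, was not called (limma adjusted p = 0.104). The decarboxylase gene *ddc*, whose enzyme makes serotonin from the product of tryptophan hydroxylase, lay at 7.74, 7.51 and 7.74 in GFP-positive and at 5.88, 6.02 and 6.26 in GFP-minus replicates 1, 2 and 3. Its difference was 1.61 (standard error 0.13, limma adjusted p = 0.00805), or 3.06-fold, with a spread within each population of at most 0.19 (SD). A further *ddc* probe set stayed at 2.17 on all arrays.

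The third called gene, *mao*, encodes the monoamine oxidase that breaks down serotonin. It lay at 10.16, 10.29 and 10.11 in GFP-positive and at 8.93, 8.43 and 9.28 in GFP-minus replicates 1, 2 and 3. The groups did not overlap. The difference was 1.31 (standard error 0.24, limma adjusted p = 0.0498), or 2.47-fold. The 3 other *mao* probe sets did not pass 4 on any array, and none was called.

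Several of these calls were lost with 5 arrays left. Probe sets called higher among all 15502 also fell then, from 463 to between 103 and 323. The differences stayed at 5.26-fold to 7.74-fold for *tph1a*, 2.88-fold to 3.29-fold for *ddc* and 2.11-fold to 2.84-fold for *mao*. Without any single array *ddc* remained called in 5 of 6 cases and was at 0.0511 without GFP-positive replicate 3. The *tph1a* call held only without GFP-minus replicate 3 (limma adjusted p = 0.0223). It was lost without GFP-minus replicate 1 or 2 (0.0808 and 0.103) and without GFP-positive replicate 1, 2 or 3 (0.0916, 0.0993 and 0.117). The *mao* call was lost without any array (limma adjusted p = 0.0504 to 0.166). Under the hybridization-control scaling *tph1a* kept its call (difference 1.85), while *ddc* and *mao* did not (differences 0.88 and 0.57, limma adjusted p = 0.0560 and 0.180).

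**Figure D2:**
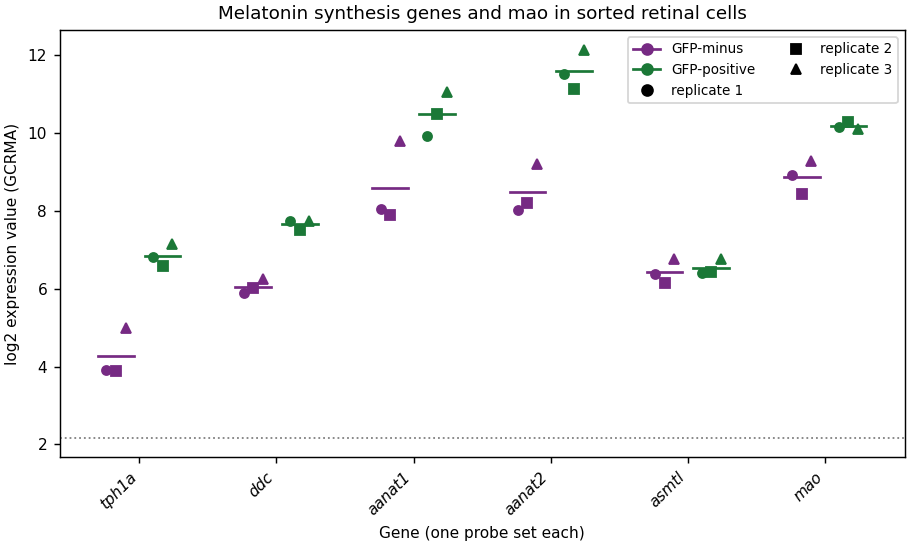
The vertical axis gives the log2 expression value of 6 genes. A symbol stands for each of 3 GFP-minus and 3 GFP-positive arrays, and a line for the mean of each population. The genes *tph1a*, *ddc*, *aanat1* and *aanat2* are shown in order of synthesis, followed by the Asmt-like gene *asmtl* and the breakdown gene *mao*. The values of *tph1a*, *ddc*, *aanat1*, *aanat2* and *mao* do not overlap between populations in the probe sets shown, those of *asmtl* do, and the dotted line is the lowest value of the table, 2.17.

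The melatonin receptor genes lay near background. The receptor genes *mtnr1aa*, *mtnr1al*, *mtnr1ba* and *mtnr1c* stayed between 2.17 and 2.43 on all arrays in their brightest probe sets, and *mtnr1bb* between 3.26 and 3.91. The further tryptophan hydroxylase genes had differences of -0.96 for *tph1b* and 0.64 for *tph2*, and neither was called. These receptor and hydroxylase genes were named after their values were seen.

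The genes whose values over the 6 arrays were most like those of *aanat2* included *tph1a*. They were *ptp4a3b*, a tyrosine phosphatase gene (Pearson's r = 0.997), *ift57*, a gene of intraflagellar transport (0.997), *tph1a* (0.997), *cox4i2*, a cytochrome c oxidase subunit gene (0.994), and *pde6ha*, an inhibitory subunit of photoreceptor phosphodiesterase (0.993). All 5 had been called higher in GFP-positive cells, by 3.37-fold, 2.95-fold, 5.99-fold, 3.76-fold and 4.15-fold. Likeness over 2 populations of 3 arrays mostly reflects the difference between them, and 430 of 4507 probe sets compared (9.54%) had an r above 0.9.

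No probe set of a clock gene was called. Of 19 such probe sets 0 passed the limma threshold, against 7.68% of all probe sets in either direction. In limma 1 of the 19 had an unadjusted p under 0.05, against 21.1% of all probe sets. In 9 of the 19 a value above 4 was reached on at least 1 array, while the other 10 never passed 4.

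The repressor gene *per2* was the clock gene with the lowest p. Its brighter probe set lay at 12.31, 13.29 and 12.67 in GFP-positive and at 11.28, 11.85 and 11.97 in GFP-minus replicates 1, 2 and 3. The populations did not overlap. The difference was 1.06 (95% confidence interval 0.17 to 1.95, limma adjusted p = 0.171), or 2.08-fold. It was called with median centring (limma adjusted p = 0.0340) and was 0.32 under the hybridization-control scaling (limma adjusted p = 0.508). The dimmer probe set lay at 5.25, 7.32 and 7.01 in GFP-positive and at 3.66, 5.34 and 6.04 in GFP-minus replicates 1, 2 and 3, with overlap. Its difference was 1.51 (95% confidence interval -0.88 to 3.90, limma adjusted p = 0.441). In both populations and both probe sets, replicate 1 was the lowest sample. The related repressor gene *per3* lay between 2.44 and 3.09 on all arrays, so that no level above background can be stated for it (limma adjusted p = 0.612). Genes of the *per1* type are not analysed here.

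The cryptochrome gene *cry2* had a pair of probe sets, and neither was called. The brighter probe set lay at 9.21, 10.96 and 10.02 in GFP-positive and at 8.81, 9.12 and 8.68 in GFP-minus replicates 1, 2 and 3. The populations were separated only narrowly, since GFP-positive replicate 1 lay close to GFP-minus replicate 2. The difference was 1.19 (95% confidence interval -0.11 to 2.50, limma adjusted p = 0.276). The dimmer *cry2* probe set ran from 6.82 to 9.80 against 6.62 to 8.15 and overlapped, with a difference of 0.97 (limma adjusted p = 0.612). Both differences were smaller under the hybridization-control scaling, at 0.46 and 0.23, and without GFP-positive replicate 2, at 0.74 and 0.27. In zebrafish this gene, whose older name is zcry3, and *cry4* are known as cryptochromes without repressor activity on the Clock and Bmal pair.

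The repressor and light-induced gene *cry1a* lay at 7.25, 7.77 and 8.02 in GFP-positive and at 6.62, 7.10 and 7.64 in GFP-minus replicates 1, 2 and 3. These ranges overlapped, with a difference of 0.56 (95% confidence interval -0.37 to 1.49, limma adjusted p = 0.466) that turned to -0.18 under the hybridization-control scaling. Its paralog *cry1b* had no difference in the means (-0.01, 95% confidence interval -1.89 to 1.86), with values of 5.47 to 7.72 against 6.14 to 7.39. Differences within this interval could not be told apart from 0 with these arrays. The *cry4* values were 6.17, 5.32 and 6.61 against 5.43, 5.52 and 5.56 in replicates 1, 2 and 3, a difference of 0.53 (limma adjusted p = 0.507), or -0.21 under the hybridization-control scaling.

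The activators of the loop were measured best through *bmal1a* and *bmal1b*. The *bmal1a* values stood at 8.38, 7.03 and 7.29 in GFP-positive and at 7.42, 6.97 and 6.67 in GFP-minus replicates 1, 2 and 3, with a difference of 0.55 (95% confidence interval -0.62 to 1.72, limma adjusted p = 0.586) and of -0.19 under the hybridization-control scaling. For *bmal1b* they were 7.77, 6.37 and 6.57 against 6.94, 4.85 and 5.47, with a difference of 1.15 (95% confidence interval -0.75 to 3.05, limma adjusted p = 0.465). The populations overlapped in both genes. In contrast to *per2*, replicate 1 was the highest sample of either population.

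**Figure D3:**
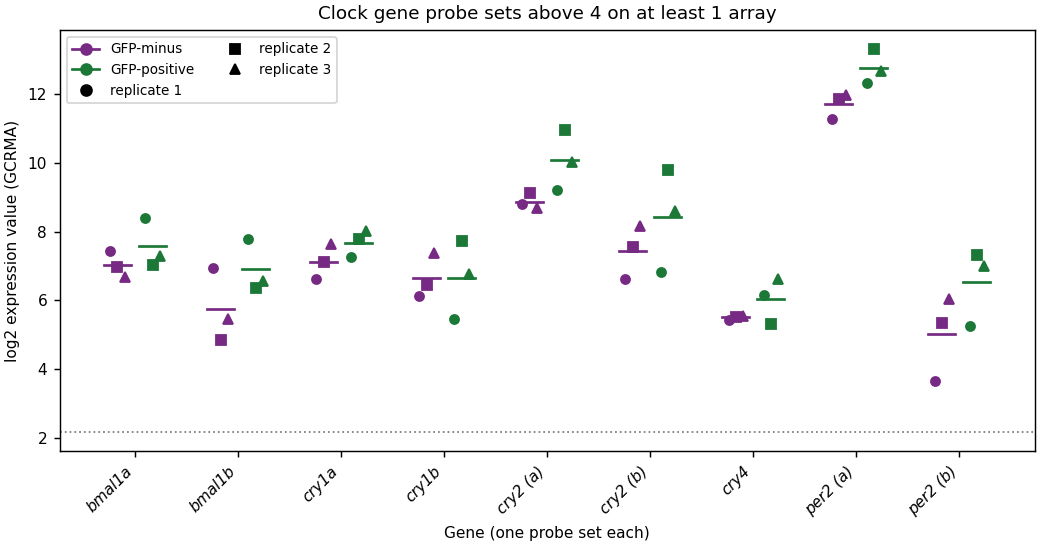
The vertical axis gives the log2 expression value of the 9 clock probe sets that passed 4 on at least 1 array, with a symbol per array, a line at the mean of 3 arrays, and a dotted line at 2.17. The populations are separate only in the brighter probe sets of *per2* and *cry2*, marked (a), and the samples of replicate 1 (circles) are low in *per2* and high in *bmal1a* and *bmal1b* in both populations.

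The remaining 10 clock probe sets did not pass 4 on any array and none was called. They belong to *clocka*, *clockb*, *npas2*, *bmal2* (both probe sets), *cry3a*, *cry3b*, *cry5* (both probe sets) and *per3*. In *clocka* 5 of the 6 arrays stood at the same value of 2.65, and 1 *bmal2* probe set stayed at 2.17 throughout. The highest value among them was 3.84, for *npas2* in GFP-positive replicate 1, against 2.42 to 2.98 in the GFP-minus samples. Their differences were 0 to 0.46. With median centring the constant *bmal2* probe set was itself called, at a difference of 0.23, which is the shift given above for all probe sets. The 6 members called under that setting therefore include probe sets at background, namely those of *bmal2*, *clocka* and *cry5*, besides *aanat2*, *aanat1* and *per2*.

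Partners of the clock outside the members were likewise not called. The 22 measured genes include nuclear receptors, D-box factors, casein kinases and F-box proteins of the loop. In limma 0 of the 22 were higher and 0 lower, also at an unadjusted p under 0.05. Of all probe sets 2.99% were called higher and 4.69% lower, and 21.1% had an unadjusted p under 0.05 in limma. The median difference of the 22 partners was 0.08, with a range of -1.20 to 1.95. Of 10 measured genes of the light response and DNA repair, only *mpv17*, an inner mitochondrial membrane protein gene that is neither a clock nor a repair gene, was higher, at 5.71, 5.84 and 5.70 against 4.90, 4.56 and 4.97 (difference 0.94, standard error 0.13, limma adjusted p = 0.0240). Further *mpv17* probe sets lay between 2.17 and 2.40 and were not called. The call of *mpv17* held without GFP-minus replicate 2 (limma adjusted p = 0.0268). It was lost without GFP-minus replicate 1 or 3 (0.0598 and 0.0514), without GFP-positive replicate 1, 2 or 3 (0.0746, 0.0981 and 0.0980) and under the hybridization-control scaling (difference 0.20). None of the 10 was called lower, but 6 of their differences were negative and 3 positive, with a median of -0.3. None of 4 measured opsin genes outside rods and cones was called in limma, and 1 was higher at an unadjusted p under 0.05. That 1 was the pineal opsin gene *exorh*, which lay near background, between 2.27 and 2.40 on all arrays (difference 0.09).

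Homeobox factors from a list for pineal and photoreceptor genes, some known to act on *aanat2*, were not called either. In limma 0 of 7 measured *otx* and *crx* list genes passed the test, against 7.68% of all probe sets. While 21.1% of all probe sets had an unadjusted p under 0.05 in limma, 2 of the 7 were higher at this level. These were *otx5*, at 6.41, 7.95 and 7.80 against 5.30, 5.76 and 5.99 (difference 1.70, limma adjusted p = 0.146), and *crx*, at 11.27, 11.62 and 12.17 against 9.89, 10.55 and 11.15 (difference 1.16, limma adjusted p = 0.224). In both genes every GFP-positive array lay above every GFP-minus array, as in 13.9% of all probe sets. The list genes *otx2a*, *lhx3* and *noto* stayed at background, between 2.17 and 2.20.

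Within each population, many clock transcripts varied between replicates in the same way. Replicate 1 was the extreme sample, in the same direction in both populations, for 7 of the 9 clock probe sets above 4 (77.8%). It was highest in *bmal1a* and *bmal1b* and lowest in *cry1a*, *cry1b*, the dimmer *cry2* probe set and both *per2* probe sets. The same held for 11 of 18 clock partner genes above 4 (61.1%) and for 48.6% of all probe sets above 4, so that the arrays of replicate 1 stood apart beyond the clock genes. Among the partners, *nfil3-5*, a repressor of D-box genes, lay at 11.68, 9.0 and 9.36 in GFP-positive and at 11.80, 9.13 and 9.19 in GFP-minus replicates 1, 2 and 3. The values of its populations thus matched replicate by replicate, with a difference between populations of -0.03. The orphan receptor gene *rorcb* lay at 10.04, 7.87 and 8.23 against 8.11, 6.40 and 5.78, with replicate 1 again highest in both. The repressor gene *ciarta* lay at 5.99, 9.79 and 7.20 against 7.48, 9.05 and 10.04, with replicate 1 lowest in both. These 3 partners were named after their values were seen. In *aanat2*, *tph1a* and the first *aanat1* probe set, by comparison, replicate 3 was the highest sample of either population. The share of all probe sets with this pattern was not counted. In the second *aanat1* probe set replicate 1 was the lowest sample of either population.

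**Figure D4:**
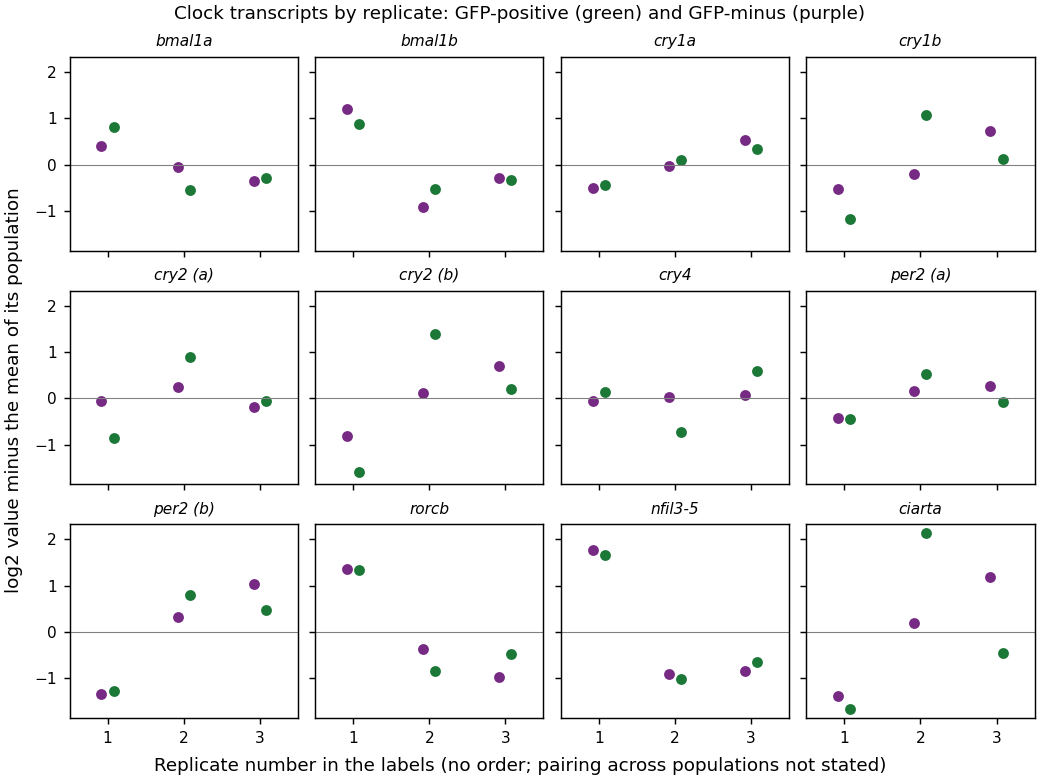
Each panel shows 1 probe set, namely the 9 clock members above 4 and the partners *rorcb*, *nfil3-5* and *ciarta*, with the log2 value of each array minus the mean of its population on the vertical axis and the replicate number on the horizontal axis. Replicate 1 lies at 1.67 and 1.76 above the mean for *nfil3-5* in GFP-positive (green) and GFP-minus (purple) cells, and at 0.45 and 0.42 below it for the brighter *per2* probe set.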

How the data were processed

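RNA of 3 GFP-positive and 3 GFP-minus samples was labelled in 2 cycles and hybridized to 6 Affymetrix zebrafish arrays. The deposited table holds 1 log2 expression value per probe set and array, made by the authors, which the submitters' processing notes credit to GCRMA, with version and settings not stated. GCRMA corrects background by probe sequence and normalizes between arrays, so dim signals collect at a common lowest value. The values were used unchanged. Arrays have no read depth, and their number limits the precision.

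After 115 control probe sets were left out, 15502 were tested with limma 3.58.1 in R 4.3.3 (lmFit and eBayes, two-sided). The variance prior had 0.519 degrees of freedom. Names came from the platform annotation, of which 10795 probe sets had 1 symbol, 135 several and 4572 none, and 1 symbol was updated through the reference table. Named were all members, up to 4 called genes of each of 5 pathway lists by size of difference, and the 5 genes most like *aanat2* by Pearson's r among probe sets with a range of at least 1. Outside this rule, the uncalled list genes *ywhaz*, *exorh*, *otx5*, *crx*, *otx2a*, *lhx3* and *noto* were named after their values were seen. A list counts each gene once, by its brightest probe set. Members and lists were chosen with earlier results of these data known. A value above 4 on any array served to separate measured from dim probe sets and was chosen after the values were seen. Sequences of the members are not analysed here. The labels name biological replicates, but whether each is its own pool of retinae is not stated. The p-values measure the spread between these samples.

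On simulated data of this comparison with 15502 probe sets, the fit recovered 8.96% of 67 changes of 1 on the log2 scale. It recovered 38.8% of 67 changes of 2 and 74.2% of 66 changes of 4. Changes were planted only in probe sets whose mean lay above the median of all means, so dim probe sets are not covered. The fit called 88 probe sets there, against 1190 in the data, so recovery in the data may differ. Alternatives were a replicate block, keeping only probe sets whose mean lay above the median of all means (the dim filter), quantile normalization, median centring, scaling to 18 probe sets of the hybridization controls, a trended robust prior, an adjusted p under 0.01, a 2-fold minimum, counting genes, and leaving out each array. Figures were drawn with matplotlib 3.10.9.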

Additional observations from a re-analysis of the deposited data

How the results depend on the processing

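The call of *aanat2* held in 7 of 12 other fits and its direction in all 12. With 5 arrays left, the counts of called probe sets were 103 to 323 higher and 214 to 740 lower over all probe sets, 0 to 1 higher among the members, 0 to 2 in the melatonin pathway, 0 to 1 among light-response genes and 0 to 1 among *otx* and *crx* genes. At an adjusted p under 0.01, 50 probe sets were higher and 201 lower, with 0 members, 1 melatonin pathway gene and 0 light-response genes higher, and with a 2-fold minimum 0 light-response genes were higher. The dim filter gave 775 probe sets higher, with 2 members and 1 *otx* or *crx* gene. Median centring gave 6151 higher and 1102 lower, with 6 members, 7 melatonin pathway, 2 clock partner, 2 light-response, 2 opsin and 5 *otx* or *crx* genes higher. The hybridization-control scaling gave 195 higher and 3251 lower, with 1 melatonin pathway gene and 0 light-response genes higher and 2 melatonin pathway, 1 clock partner and 4 light-response genes lower.

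Under that scaling the differences of members turned negative, to -0.64 for *asmtl*, -0.19 for *bmal1a*, -0.65 for a *bmal2* probe set, -0.70 for *clocka*, -0.56 for *clockb*, -0.18 for *cry1a*, -0.55 for *cry3a*, -0.68 for *cry3b*, -0.21 for *cry4*, -0.49 and -0.62 for *cry5*, -0.27 for *npas2* and -0.54 for *per3*, none of them called. This scaling lowers all probe sets by the shift given above. The difference of *cry1b* was 0.06 with quantile normalization, 0.21 with median centring and -0.55 to 0.58 with single arrays left out. With single arrays left out it also changed sign for *asmtl* (-0.04 to 0.26), *cry3a* (-0.03 to 0.33) and a *cry5* probe set (-0.01 to 0.20). The cause was not tested.

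With the replicate number as a block, 194 probe sets were higher and 256 lower, with 0 melatonin pathway and 0 light-response genes. The call of *aanat2* held (limma adjusted p = 0.0445), while *tph1a* (0.0585), *ddc* (0.0535), *mao* (0.143) and *mpv17* (0.109) lost theirs. Among the members only *aanat2* was called with the block. The limma adjusted p was 0.106 for *bmal1b*, 0.0997 for *cry1a* and 0.122 and 0.117 for *per2*. These values were lower than in the main fit. For *aanat2* and *cry3b* (0.811) the limma adjusted p was higher than in the main fit. Deviations from the population means correlated between same-numbered samples at 0.555, 0.0589 and 0.266 for numbers 1, 2 and 3. Between samples of unlike number these correlations ran from -0.443 to 0.357. The labels do not state a pairing, so the main fit did not pair the samples.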
